A study of Arabidopsis thaliana with 9 samples.

Results

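The 217 probe sets described here are those whose signal in Arabidopsis thaliana inflorescences was highest in the group in which the DELLA protein RGA was activated. They were chosen by their values on the 9 Affymetrix arrays of the study. A probe set was taken when the lowest of the 3 RGA-GR Dex values exceeded the highest of the other 6 and when the RGA-GR Dex mean was at least 0.6 on the log2 scale above the mean of each of the other groups. They are 217 of 17273 probe sets that passed a filter on low values, and of 22746 in all. A probe table names 1 gene for 117 of them, several genes for 2 and none for 98, and the 117 stand for 116 distinct genes. The gibberellin receptor gene GID1B also met the numbers and was left out by name, since it was set aside beforehand together with GID1C, SNE, GH3.3 and the ALDH and CML genes. For probe sets without a name this could not be checked.

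All plants were ga1-3 rga rgl2, mutants that make little gibberellin (GA) and lack the DELLA proteins RGA and RGL2. RGA-GR Dex is this mutant carrying RGA fused to the hormone-binding part of the glucocorticoid receptor, treated with dexamethasone (Dex), a steroid that lets the fusion protein enter the nucleus. RGA-GR mock is the same line under mock treatment, and nontransgenic Dex is the mutant without the transgene under Dex. Each group has 3 arrays, from inflorescences taken at 4 h from which flowers past stage 12 were absent. The labels give neither the promoter of the transgene nor the number of transgenic lines, and the replicates are described as independent sets. The transcripts of RGA, RGL2 and GA1 are not analysed here, because the probe table names no probe set for them. The labelled tissue could not be checked, since 0 of 10 listed floral organ identity genes are named by the probe table.

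DELLA proteins are nuclear repressors of growth that GA removes: GA bound to a GID1 receptor brings a DELLA protein to an SCF ubiquitin ligase and from there to breakdown by the proteasome. DELLA proteins do not bind DNA themselves in the usual way and act through other transcription factors, some of which they block and some of which they assist. In flowers they hold back stamen and petal growth when GA is low. Genes that rise with DELLA activity in seedlings include GA receptor genes, which makes the pathway feed back on itself.

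The deposited values are ratios. For 197 of the 217 probe sets the ratio is to the row's own median over the 9 arrays, and for the other 20 the row median is under 1 and the divisor is not known. Values therefore compare arrays and not genes, and where the RGA-GR Dex arrays take the top 3 places the row median falls among the other 6 by construction. All values below are log2 ratios or differences of log2 ratios, with n = 3 arrays per group. For the 217 the groups differ by definition in the comparisons with RGA-GR Dex, so these carry no test for them.

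In 783 probe sets, 4.53% of those kept, every RGA-GR Dex array lay above all other arrays, and the size limit of 0.6 reduced these to 218, or 1.26%. Under the same rule with another group on top, 95 probe sets were highest in RGA-GR mock and 1520 in nontransgenic Dex. Turned round, RGA-GR Dex was lowest in 179 probe sets, RGA-GR mock in 90 and nontransgenic Dex in 2158. Probe sets that set RGA-GR Dex apart were thus fewer, upward and downward, than patterns that set the nontransgenic plants apart. For Dex against mock treatment of the RGA-GR line, 0 of 17273 probe sets (0.0%) passed an adjusted p of 0.05 in limma, 1525 had an unadjusted p under 0.05, and 1 passed with eBayes without trend. This fit ignores that the Dex and mock arrays of the line pair by number; with the replicate number as a block it was also 0 (1911 with an unadjusted p under 0.05), and 0 in the 6 RGA-GR arrays alone with that block (2433). The 217 are accordingly a list made by a pattern and not by a test.

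The difference of RGA-GR Dex from RGA-GR mock had a median of 0.77 over the 217 probe sets and ran up to 2.38, while the difference from nontransgenic Dex had a median of 1.31 and ran up to 4.01. Over all probe sets kept the medians were 0.08 and 0.14. For 189 of the 217 the mock comparison was the smaller of the pair. Both differences reached 1 in 48 probe sets, and the smaller was under 0.8 in 129. The arrays were often close where the groups met: the gap between the lowest RGA-GR Dex value and the highest other value had a median of 0.20, was under 0.1 in 52 probe sets and reached 0.5 in 23. The highest array outside RGA-GR Dex was a mock array in 180 cases and a nontransgenic array in 37.

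**Figure D1:**
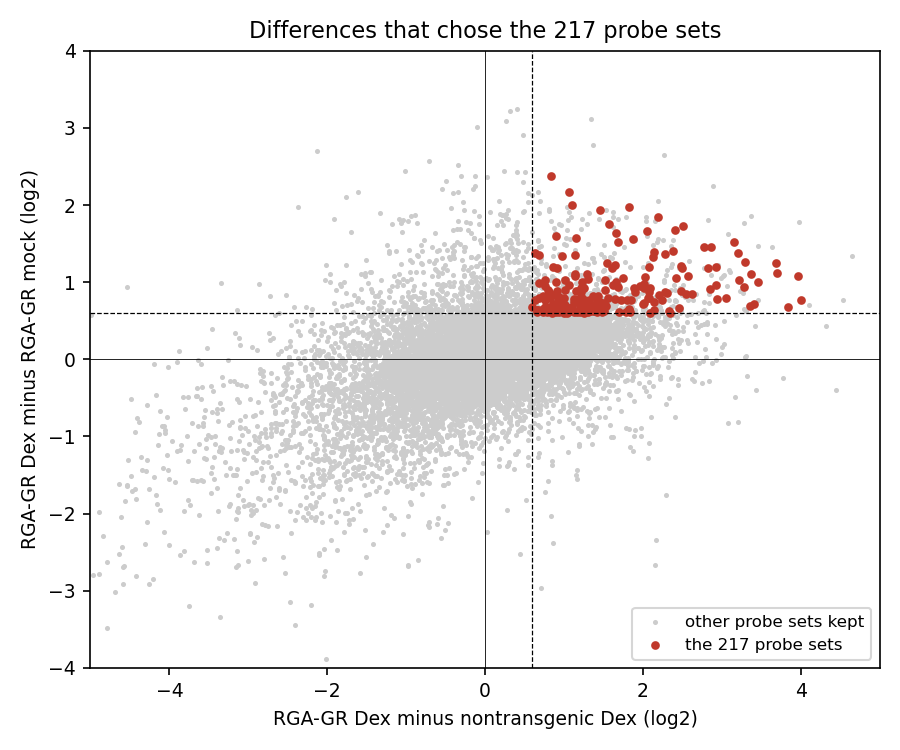
Each point is a probe set, placed by the difference of RGA-GR Dex from nontransgenic Dex (x axis, log2) and from RGA-GR mock (y axis, log2); red points are the 217 probe sets, grey points the others that passed the filter, dashed lines the limit of 0.6, and 20 grey points lie outside the axes. Most red points lie close above the horizontal dashed line and spread to the right, up to 4.01.

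At the limit of 0.6, the last probe sets inside were those of AT1G49170 (0.6001 from mock), AT3G62000 (0.6001 from nontransgenic Dex) and AT4G34400 (0.6010 from mock), and the first outside were those of AT3G16530 (just under 0.6), AT1G79190 (0.598) and AT1G51745 (0.598), all from mock. The smallest gaps between the groups were 0.0076 and 0.014 in a pair of unnamed probe sets and 0.013 in AT1G56090.

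The 3 RGA-GR Dex arrays were not alike. The median of the 217 probe sets was 0.42, 0.85 and 0.80 on RGA-GR Dex replicates 1, 2 and 3, against 0.00 on each RGA-GR mock array and -0.63, -0.54 and -0.71 on the nontransgenic Dex arrays. Replicate 1 was the lowest RGA-GR Dex array in 152 probe sets and the highest in 20. Dex and mock arrays that share a replicate number also deviate together, so differences within these pairs are given too. Their medians were 0.54, 0.91 and 0.95 in pairs 1, 2 and 3, and pair 1 held the smallest difference in 148 probe sets. All 3 pairs reached 0.6 in 50 probe sets, 24 of which have 1 gene, and all reached 1 in 9. In 62 probe sets at least 1 pair differed by under 0.3.

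**Figure D2:**
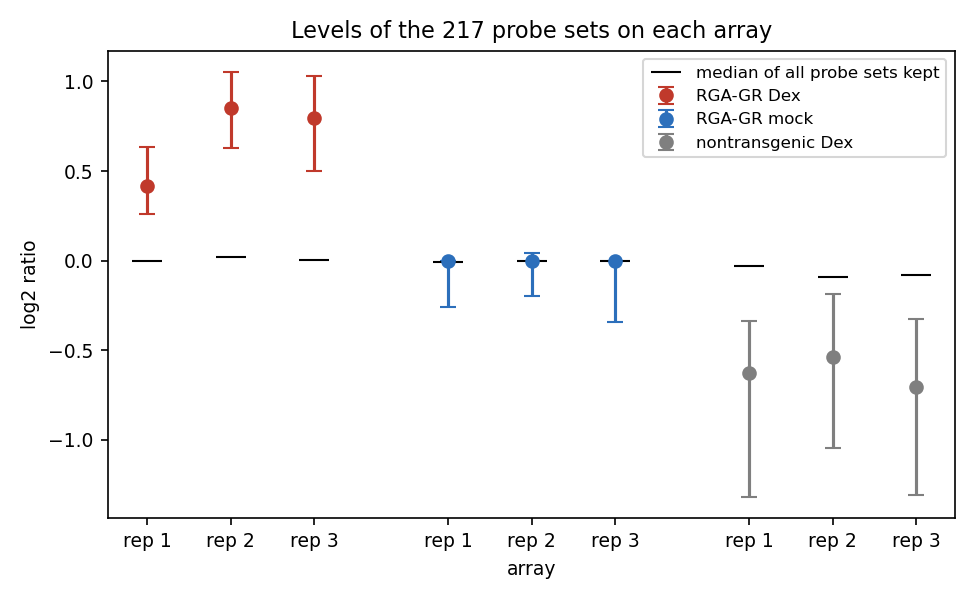
Points are the median log2 ratio of the 217 probe sets on each array and bars run between their quartiles; black dashes mark the median of all probe sets kept. RGA-GR Dex replicate 1 (0.42) lies below replicates 2 (0.85) and 3 (0.80), the mock arrays lie at 0.00, and the nontransgenic arrays lie between -0.54 and -0.71.

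AT1G25400 had the largest of the smaller differences among the 217. Its log2 ratios were 0.96, 1.29 and 2.0 in RGA-GR Dex, against -0.61, -0.69 and 0.00 in RGA-GR mock and -1.69, 0.22 and -0.84 in nontransgenic Dex. That is 3.60-fold higher in RGA-GR Dex than in RGA-GR mock, with 1.56, 1.98 and 2.0 in the 3 pairs, and 4.55-fold higher than in nontransgenic Dex, whose arrays were the most uneven. AT5G39580 stood at 1.57, 1.2 and 0.84 in RGA-GR Dex, against 0.24, -0.52 and -0.66 in RGA-GR mock and -0.82, -0.63 and 0.00 in nontransgenic Dex. Its pairs differed by 1.33, 1.72 and 1.5. AT2G28570 had 1.23, 1.06 and 0.83 in RGA-GR Dex, against 0.06, -0.30 and -0.70 in RGA-GR mock and -0.08, -0.21 and 0.00 in nontransgenic Dex. Both groups without Dex-activated RGA-GR overlapped for each of these genes, and the reference tables give none of them a name beyond the locus. AT5G44450 was even in all groups, with 0.97, 1.10 and 0.95 in RGA-GR Dex, against 0.00, 0.13 and -0.12 in RGA-GR mock and -0.13, -0.26 and -0.27 in nontransgenic Dex, a difference of 1.0 from mock and 1.23 from nontransgenic Dex.

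Other large differences rested on uneven comparison arrays. AT4G37295 had 0.20, 0.14 and 0.01 in RGA-GR Dex, against -0.46, -2.34 and -2.78 in RGA-GR mock and -0.31, -1.93 and -2.89 in nontransgenic Dex. AT5G20760 had 0.22, 0.28 and 0.26 in RGA-GR Dex, against -0.97, 0.06 and -3.24 in RGA-GR mock and 0.00, -2.14 and -2.08 in nontransgenic Dex. In both genes the RGA-GR Dex arrays lay within 0.2 of each other, and the highest other array lay 0.32 below the lowest of them in AT4G37295 and 0.17 below it in AT5G20760. The mock arrays of 43 of the 217 probe sets spanned more than the mean difference between RGA-GR Dex and mock, and those of 14 spanned at least 2.

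**Figure D3:**
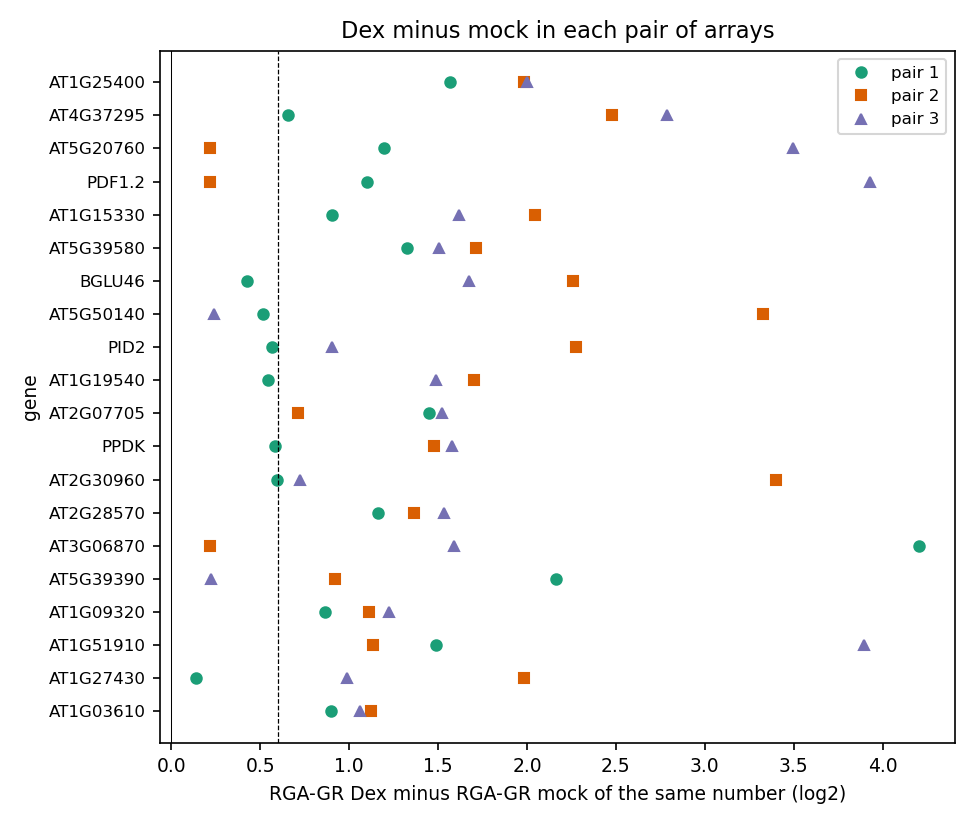
Each row is 1 of the 20 probe sets with a single gene and the largest smaller difference, and the symbols give RGA-GR Dex minus RGA-GR mock (log2) in each of the 3 pairs of arrays; the dashed line marks 0.6. AT5G39580 (1.33 to 1.72) and AT2G28570 (1.16 to 1.53) are close together, while PDF1.2 (0.22 to 3.93) and AT3G06870 (0.22 to 4.20) are spread.

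Among genes with a known product, 3 encode defensin-like peptides, small cysteine-rich proteins of which some act against fungi. PDF1.2, a widely used marker of the jasmonate and ethylene defence response, had 0.03, 0.16 and 0.01 in RGA-GR Dex, against -1.07, -0.06 and -3.92 in RGA-GR mock and -1.24, -1.21 and -2.06 in nontransgenic Dex. Its mean was 1.75 above RGA-GR mock, but pair 2 differed by 0.22 and pair 3 by 3.93, and its divisor is not known. PDF1.4 had 0.39, 0.53 and 0.73 in RGA-GR Dex, against -0.75, 0.03 and 0.00 in RGA-GR mock and -2.60, -2.11 and -2.79 in nontransgenic Dex, so that it was 8.28-fold higher than in nontransgenic Dex and 1.73-fold higher than in mock. LCR66, also named PDF2.4, had 0.24, 0.44 and 0.57 in RGA-GR Dex, against -1.08, 0.14 and -0.17 in RGA-GR mock and 0.00, -0.40 and -0.68 in nontransgenic Dex. Its 2 comparison groups overlapped, and it was 1.73-fold higher than in mock.

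The 3 are part of a larger family. Of 15 probe sets with symbols or synonyms PDF1, PDF2 and LCR, gathered after the values were seen, 10 passed the filter on low values. The pattern also took in PDF1A and PDF1B, which are peptide deformylases and not defensin-like. Both are among the 10, with 0.23 and -0.21 from RGA-GR mock and 0.02 and -0.49 from nontransgenic Dex. The median difference of the 10 was 0.18 from RGA-GR mock, with 6 of 10 above 0, and -0.22 from nontransgenic Dex, with 4 of 10 above 0. These values describe the name pattern and not the family alone. The closest relative by name, PDF1.2b, differed by -1.57 ± 1.45 (SE) from mock, and its probe set may also bind related transcripts.

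Several members act in signalling. PSY1R, a leucine-rich repeat receptor kinase that was described as the receptor of the growth-promoting sulfated peptide PSY1, had 0.27, 0.38 and 0.70 in RGA-GR Dex, against -0.95, -0.42 and 0.00 in RGA-GR mock and -0.37, -0.46 and -0.86 in nontransgenic Dex. All 3 pairs differed, by 1.22, 0.79 and 0.69, and the 2 comparison groups overlapped. PID2, a protein kinase related to PINOID, which directs PIN auxin carriers, had 0.86, 0.41 and 0.90 in RGA-GR Dex, against 0.29, -1.86 and 0.00 in RGA-GR mock and -1.67, -0.39 and -0.41 in nontransgenic Dex. One mock array, replicate 2, gave most of its difference of 1.25 from mock. AT1G08590, listed with the synonym PXY-like1, averaged 0.04 ± 0.18 in RGA-GR Dex, -0.70 ± 0.57 in RGA-GR mock and -1.11 ± 0.72 in nontransgenic Dex (SD). IQD22, of a family of calmodulin-binding proteins with IQ motifs, averaged 0.80 ± 0.22 in RGA-GR Dex, 0.13 ± 0.25 in RGA-GR mock and -0.70 ± 0.61 in nontransgenic Dex (SD).

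Other members act in the nucleus. IYO (MINIYO), a partner of RNA polymerase II needed for cells to begin differentiation, had 0.94, 1.39 and 0.77 in RGA-GR Dex, against -0.03, 0.33 and 0.00 in RGA-GR mock and -0.54, -0.73 and -0.68 in nontransgenic Dex. The groups formed 3 steps without overlap, and the pairs differed by 0.97, 1.06 and 0.77. OBE1 (OBERON1), a PHD-finger protein needed for meristems, averaged 0.47 ± 0.44 in RGA-GR Dex, -0.30 ± 0.52 in RGA-GR mock and -1.33 ± 0.09 in nontransgenic Dex (SD). NAC014, a transcription factor of the NAC family, averaged 0.77 ± 0.32 in RGA-GR Dex, -0.02 ± 0.11 in RGA-GR mock and -0.79 ± 0.35 in nontransgenic Dex (SD). AT5G41920 encodes SCL23, a GRAS protein of the same family as the DELLA proteins, and had 0.77, 0.93 and 1.22 in RGA-GR Dex, against 0.51, -0.05 and 0.00 in RGA-GR mock and -0.40, -0.11 and -0.84 in nontransgenic Dex. Its lowest RGA-GR Dex array lay 0.26 above the highest mock array.

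A further group are enzymes. BGLU46, a beta-glucosidase that acts on glucosides of lignin precursors, had 0.22, 2.26 and 1.83 in RGA-GR Dex, against -0.21, 0.00 and 0.16 in RGA-GR mock and -1.25, -1.19 and -1.56 in nontransgenic Dex. Replicate 1 of RGA-GR Dex lay just above the mock arrays and far below its replicates. PPDK, pyruvate orthophosphate dikinase, which makes phosphoenolpyruvate from pyruvate, had 0.41, 1.61 and 1.58 in RGA-GR Dex, against -0.17, 0.14 and 0.00 in RGA-GR mock and -1.02, -1.15 and -1.69 in nontransgenic Dex. It showed the same weak first replicate. UGT85A4, a glycosyltransferase, had 0.84, 0.74 and 1.4 in RGA-GR Dex, against -0.33, 0.68 and 0.00 in RGA-GR mock and -2.93, -0.85 and -0.66 in nontransgenic Dex, and pair 2 differed by 0.06. MGL, methionine gamma-lyase, which degrades methionine, was 1.58-fold higher than in mock, with 0.15, 1.13 and 0.70 in the pairs. GME, GDP-mannose epimerase of ascorbate synthesis, was 1.54-fold higher than in mock, and AAE16, an acyl activating enzyme, 1.55-fold. AT3G52060, listed as GnTL, an N-acetylglucosaminyl transferase-like protein, was 1.67-fold higher than in mock.

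The remaining genes with a symbol belong to transport and the cytoskeleton. SAMTL, which resembles carriers of S-adenosyl methionine, had 0.42, 0.44 and 0.33 in RGA-GR Dex, against 0.00, 0.09 and -0.98 in RGA-GR mock and -2.97, -2.94 and -2.97 in nontransgenic Dex. The distance to the nontransgenic arrays was 10.2-fold and that to mock 1.62-fold. BRK1 (BRICK1), a subunit of the SCAR/WAVE complex that starts actin branching, had 0.88, 0.81 and 0.15 in RGA-GR Dex, against -0.06, -0.03 and 0.00 in RGA-GR mock and 0.12, -0.03 and -0.24 in nontransgenic Dex. Here replicate 3 of RGA-GR Dex was the low one and both other groups lay at the same level. TRM22, of a family that recruits TON1 to microtubules, had 0.39, 0.90 and 0.28 in RGA-GR Dex, against 0.00, -0.46 and 0.03 in RGA-GR mock and -0.11, -0.22 and -0.40 in nontransgenic Dex.

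**Figure D4:**
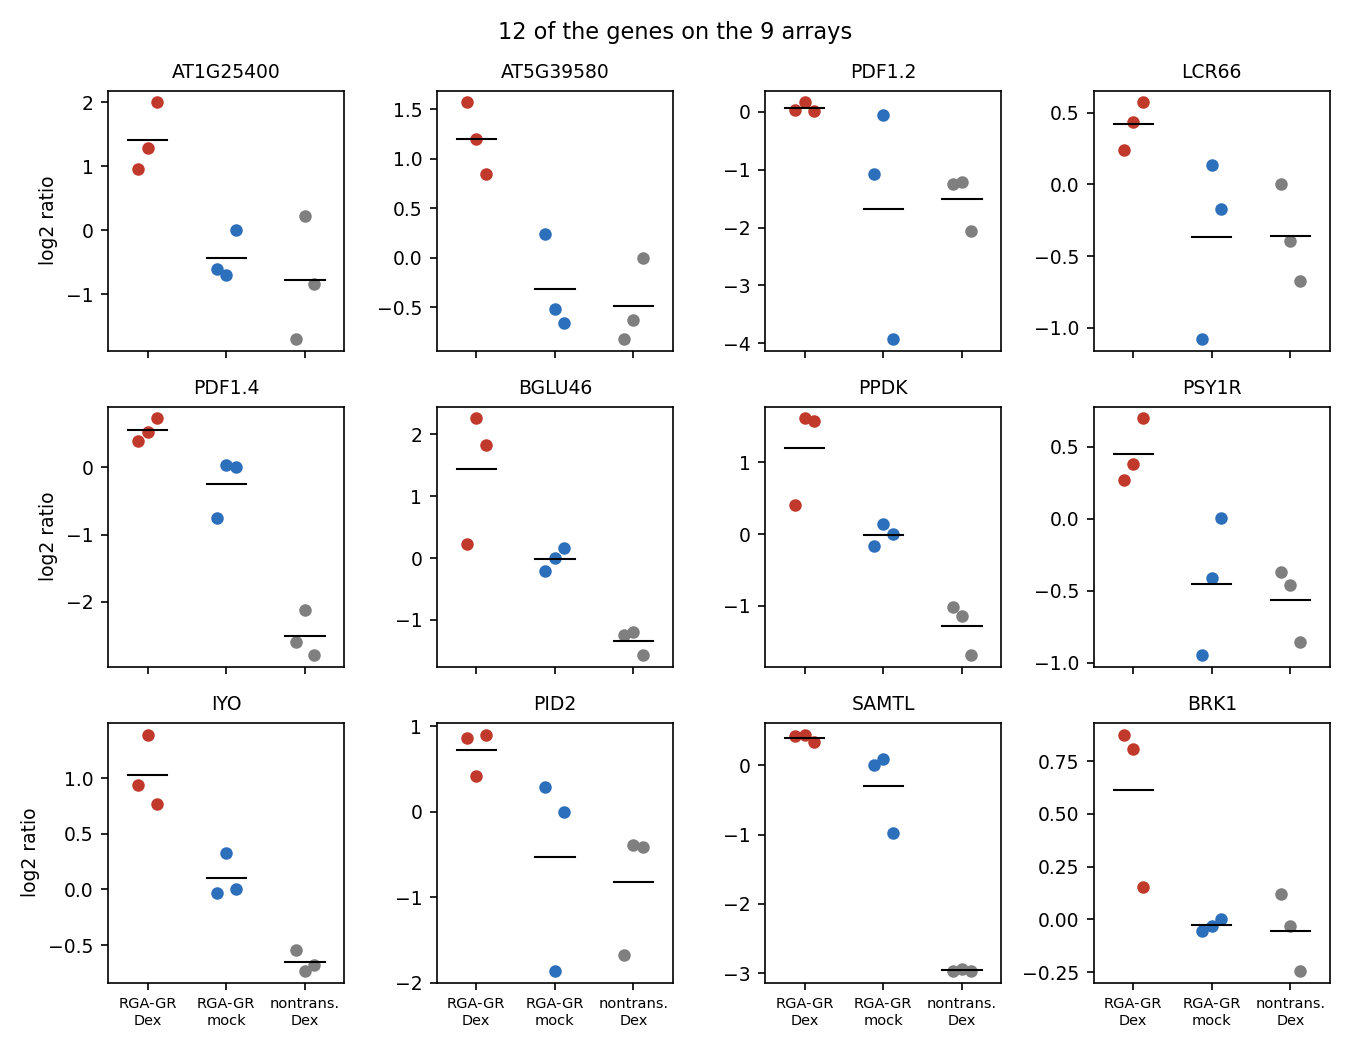
Log2 ratios of 12 genes (one panel each, y axes differ) on the RGA-GR Dex, RGA-GR mock and nontransgenic Dex arrays; each point is an array in the order of replicates 1 to 3 and the bar is the group mean. PSY1R, LCR66 and BRK1 lie at similar levels in both groups without Dex-activated RGA-GR, while PDF1.4, SAMTL, PPDK and IYO are lowest in nontransgenic Dex.

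RGA-GR mock and nontransgenic Dex both lack Dex-activated RGA-GR, though whether the fusion protein was wholly inactive under mock was not measured. Whether the 217 probe sets have the same level in these groups is not set by the rule, though the rule limits the difference from below. A probe set with a Dex-to-mock difference of 0.8 could be chosen only if mock was at most 0.2 under nontransgenic Dex. Neither the balance of directions nor the share that passed a test is therefore a result about these genes, and single genes are described. The fit also pools the spread of the arrays that the rule used. Median SDs over the 217 were 0.31 in RGA-GR Dex, 0.23 in RGA-GR mock and 0.27 in nontransgenic Dex. Over all probe sets kept they were 0.33, 0.32 and 0.22. RGA-GR mock and nontransgenic Dex also differ in Dex itself and in the transgene. The means were higher in RGA-GR mock for 189 of the 217, where 54.4% of all probe sets kept were, and lower for 28, with a median of 0.51. All mock arrays lay above all nontransgenic arrays in 104 of the 217 (47.9%), where 23.3% of all probe sets kept did, and below them in 1, where 16.6% did. In limma 65 of the 217 (30.0%) passed an adjusted p of 0.05 with a higher level in mock, where 9.07% of all probe sets did, and 1, an unnamed probe set (-0.67 ± 0.20, SE), passed with a lower level, where 6.19% did; either way it was 15.3% of all. Without RGA-GR mock replicate 2, 0 of the 217 and 0 of all probe sets passed in limma (84 and 4325 had an unadjusted p under 0.05). Without RGA-GR mock replicate 1, 33 of the 217 and 1368 of all passed. With only the 6 compared arrays in the fit, 35 of the 217 and 2140 of all passed.

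For comparison, 427 probe sets were taken on RGA-GR Dex against mock alone, with all 3 arrays above and a difference of at least 0.6; this choice itself favours low mock values, so they are no unbiased background. The 427 include all 217 probe sets and 210 others, so they are no separate set. In the 427 the median of RGA-GR mock minus nontransgenic Dex was -0.11, 65 passed higher (15.2%) and 47 lower (11%). The 65 are the same probe sets that passed higher among the 217, and 1 of the 47 is among the 217.

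Of the 117 probe sets with 1 gene, 25 are among those that passed higher in RGA-GR mock, under the same limit by the rule and against 9.07% of all probe sets kept. The differences are given as a description. The largest belonged to the pair of probe sets for AT2G30600 (3.16 ± 0.72 and 2.34 ± 0.37, SE), SAMTL (2.66 ± 0.61), AT1G19540 (2.44 ± 0.36) and PDF1.4 (2.26 ± 0.50). AT1G19540 had 0.70, 1.69 and 1.49 in RGA-GR Dex, against 0.16, -0.01 and 0.00 in RGA-GR mock and -2.04, -2.35 and -2.78 in nontransgenic Dex. Most of its distance from the nontransgenic arrays was thus also seen in RGA-GR mock, a comparison in which Dex and the transgene both differ. PPDK (1.27 ± 0.32), GME (0.77 ± 0.20), NAC014 (0.76 ± 0.23), IYO (0.75 ± 0.19) and AT3G52060 (0.72 ± 0.19) also had higher means in mock (SE). In 77 of the 217 the step from nontransgenic Dex to mock was larger than the step from mock to RGA-GR Dex. That count was not compared with all probe sets kept.

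For 151 probe sets the test was not passed. Of the whole 217, 45 had group means within 0.2 of each other. Neither this count nor the next was compared with all probe sets kept, and the rule limits the difference from below. In 23 the 95% interval of the difference lay between -0.6 and 0.6, among them BRK1 (0.02, interval -0.44 to 0.49), TRM22 (0.10, -0.37 to 0.57), AT5G44450 (0.22, -0.13 to 0.58), AT5G51830 (-0.06, -0.51 to 0.39) and AT4G35070 (-0.08, -0.47 to 0.31). By this interval these 23 were alike, to within 0.6, in both groups without Dex-activated RGA-GR. The interval rests on the spread of arrays that the rule used. It does not measure how far RGA-GR Dex stood above, and in BRK1 the lowest RGA-GR Dex array lay close above a nontransgenic array. In AT5G44450 all mock arrays still lay above all nontransgenic arrays. For PDF1.2 (-0.18, up to 1.95) and AT4G37295 (-0.15, up to 1.91) the interval was too wide to call the groups alike.

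**Figure D5:**
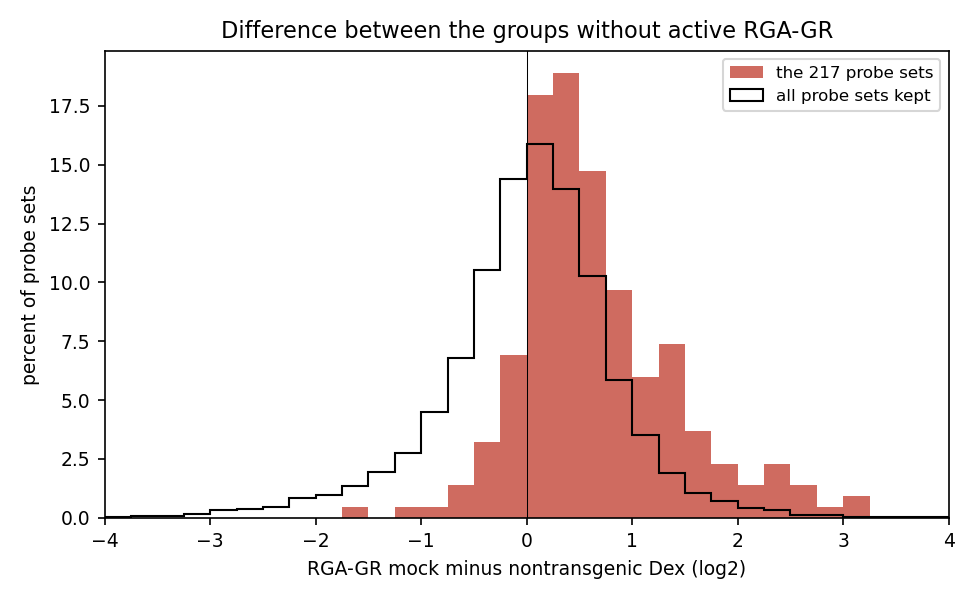
Distribution of RGA-GR mock minus nontransgenic Dex (x axis, log2) over the 217 probe sets (red) and over all probe sets kept (black line), in percent of each (y axis). The 217 have a median of 0.51 and their left side is limited by the rule; the median of all probe sets kept is 0.07.

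In the GA pathway, 7 of 13 genes of perception and signalling were measured and none of them is a member, because the rule leaves out GID1B and the other 6 did not meet it. GID1B had 0.57, 1.08 and 0.84 in RGA-GR Dex, against 0.00, -0.30 and -0.28 in RGA-GR mock and 0.28, -0.04 and -0.20 in nontransgenic Dex, and its mean differed by -0.21 between RGA-GR mock and nontransgenic Dex. GID1A (0.11 from mock), SLY1 (0.25), SEC (0.21), SPY (0.37) and SNE, listed as SLY2 (0.53), fell short of 0.6 from mock, and GID1C reached 0.62 but one mock array (0.62) exceeded 2 of the RGA-GR Dex arrays. GH3.3 had all RGA-GR Dex arrays highest but differed by 0.54 from mock. Of the 7, 0 passed for RGA-GR Dex against mock in limma, without or with the replicate number as a block (0.0% of all probe sets did). For RGA-GR Dex against nontransgenic Dex, 5 passed with a higher level (17.5% of all did, and 27.0% passed either way). They were GID1A, GID1B, GID1C, SNE and SPY. GID1B met the numbers of the rule on the same values, so its call carries no weight. GID1A differed by 1.42 in this comparison and already by 1.30 between RGA-GR mock and nontransgenic Dex. Of the 4 measured seedling DELLA targets, XERICO differed by 0.25 from mock and -0.52 from nontransgenic Dex and BHLH137 (AT5G50915) by -0.47 and -0.08, and neither passed.

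The lists of families by gene symbol and synonym mostly held 0 or 1 member. The highest count was 3 of 19 in the list for lipid transfer proteins and lipases, where the pattern LCR also took in PDF1.2, PDF1.4 and LCR66, the defensin-like genes described above. Other counts were 1 of 34 glycosyltransferase (UGT) probe sets, 1 of 15 beta-glucosidases, 1 of 3 GRAS factors and 1 of 1 NAC factor, where 1.26% of all probe sets kept are members. They were 0 of 25 bHLH factors, 0 of 16 bZIP factors, 0 of 7 WRKY factors, 0 of 25 xyloglucan enzymes and expansins, 0 of 14 cytochromes P450, 0 of 19 sugar and starch genes, 0 of 23 F-box and ubiquitin ligase genes and 0 of 10 glutathione transferases. With 18 of the 117 single-gene probe sets carrying a symbol other than a locus number, the lists see only a small share of the members.

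Of 115 member genes on the nuclear chromosomes, 44 (38.3%) are on chromosome 1, which holds 26.7% of the genes measured, and 15 (13.0%) on chromosome 3, which holds 20.5%. Some are neighbours in the RefSeq gene order of TAIR10.1. AT1G15320 and AT1G15330 lie side by side, with AT1G15280 within 2 further protein-coding genes. AT1G15330 had 0.82, 2.04 and 2.21 in RGA-GR Dex, against -0.09, 0.00 and 0.59 in RGA-GR mock and -1.53, -1.39 and -1.48 in nontransgenic Dex, while AT1G15320 had 0.25, 1.04 and 0.84, against -0.90, -0.12 and 0.06 and -0.57, 0.00 and -0.33 in the same groups. Both neighbours are members, so the rule itself required their distances from mock, 1.52 and 1.03. Between mock and nontransgenic Dex they differed by 1.63 and -0.02. How often member genes would be neighbours by chance was not tested. PDF1.2 and AT5G44450 have 2 genes between them, AT1G03590 and AT1G03610 have 1, and BGLU46 and AT1G61890, like AT2G38820 and AT2G38870, have 4.

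A second probe set allowed a check for 4 member genes. Both probe sets of AT2G30600 are members, with RGA-GR Dex above mock by 0.94 and 0.67. For AT5G52580 the member differed by 0.68 from mock and the other probe set by 0.33, for AT4G17140 the member by 0.87 and the others by 0.50 and 0.89, and for AT1G60200 the member by 0.61 and the other by -0.10 ± 0.87 (SE). Of the other AT4G17140 probe sets, the one at 0.89 ran the opposite way from the member elsewhere, with -0.55 against 2.08 for RGA-GR Dex minus nontransgenic Dex and -1.44 against 1.21 for RGA-GR mock minus nontransgenic Dex. The other probe sets of these last 3 genes did not have all RGA-GR Dex arrays on top. Probe sets of the kind that can bind several transcripts (ending in _s_at) numbered 8 among the 217.

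Other signals also differed between the groups, and their part in these results was not tested. The 25S rRNA control signal was 3.29, 4.71 and 2.93 in RGA-GR Dex, against 0.00, 4.15 and -1.01 in RGA-GR mock and -3.58, -4.02 and -4.12 in nontransgenic Dex, the same order of groups as in the 217. Of the pollen markers, 6 of 9 were measured, with a median log2 ratio of -3.26 to 0.00 on the RGA-GR Dex arrays, -1.15 to 0.69 on mock and 1.48 to 1.82 on nontransgenic Dex. For tapetum and pollen coat 4 of 8 were measured, with medians of -1.12 to 0.00, -0.35 to 0.03 and -0.10 to 0.31 on the arrays of these groups, and for green tissue 2 of 6, with -0.04 to 0.06, 0.00 to 0.20 and -0.94 to -0.86. In whole inflorescences fewer cells of a type and less RNA per cell cannot be told apart. Poly-A spike-in signals were low on pairs 1 and 2 of the RGA-GR line (medians -3.73 to -3.23) and high on pair 3 and the nontransgenic arrays (0.00 to 1.25). Within the low arrays the 217 differed between RGA-GR Dex and mock by a median of 0.74, and within pair 3 by 0.95, with 217 of 217 above 0 in both as the rule requires. Among the arrays with high signal, which hold 1 mock array, RGA-GR mock minus nontransgenic Dex had a median of 0.49 over the 217. Over all probe sets kept it was 0.12. The rule limits this difference from below, so it is no result about these genes.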

How the data were processed

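Each of 9 inflorescence samples gave biotin-labelled RNA for 1 Affymetrix array, per the labels. The software GCOS appears, with no version, in the submitters' processing notes. The deposited values are linear ratios: medians of exactly 1 occur in 15112 of 22810 rows and medians under 1 in 7698. Background correction, summary and array scaling are not given in the sources used here. The log2 of the ratio was used without an offset. The 64 control probe sets were set aside, and a probe set was kept when 3 or more of its 9 values were above the 40th percentile of their array.

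RGA-GR mock against nontransgenic Dex was tested by fitting all 9 arrays together in limma 3.58.1 (R 4.3.3), with eBayes using a mean-variance trend (two-sided, adjusted by Benjamini-Hochberg over 17273 probe sets, threshold 0.05, 6 residual degrees of freedom); the same fit gave the calls for the GA pathway. SE is limma's moderated error and SD is over 3 arrays. The fit was also run on simulated data with independent errors. These held no pairs of arrays and no choice of members, so that run cannot show how such features affect the calls. Precision is limited by the number of arrays; the median SE of this difference was 0.26. P-values measure the spread between these samples, which the design text calls biologically independent. The fit took all 9 arrays as independent, although Dex and mock arrays that share a replicate number deviate together.

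Dex and mock arrays sharing a replicate number were treated as pairs because their deviations from the group means correlate (r = 0.332, 0.118 and 0.325); numbers of nontransgenic arrays do not pair with the mock arrays (r from -0.0387 to 0.0355).

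The members and lists were chosen with earlier results of these data known. Genes were named by a fixed rule: the 20 probe sets with 1 gene and the largest smaller difference, members of lists, those at the limits, the largest calls of mock against nontransgenic Dex, neighbours and genes with a second probe set. Beyond it, all 18 members with a symbol, 3 with a symbol among their synonyms, the genes with narrow intervals and AT5G44450 were named after their values were seen. PPDK, BRK1 and PID2 also matched name patterns for abscisic acid, brassinosteroid, heat shock, auxin or senescence, mostly through synonyms of another meaning, and these were not counted; PDF1.2, PDF1.4 and LCR66 matched the lipid transfer list in the same way. Gene names are from GEO's platform annotation and RefSeq (TAIR10.1), which matched 13436 of 13513 probe sets with 1 gene. No sequences are shown. Alternatives were other scalings, filters, eBayes settings and blocks, and each array left out. Python 3.11.15 with matplotlib 3.10.9 drew the figures.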

Additional observations from a re-analysis of the deposited data

Results flagged for a closer look

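The control probe set for 25S rRNA lies outside the measurement of messenger RNA. On the log2 scale, its mean under Dex in the RGA-GR line exceeded that in the nontransgenic plants by 7.55. Its part in the levels of the 217 probe sets was not tested.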

How the results depend on the processing

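The number of probe sets that meet the rule, 217, was 184 after quantile normalization (169 of the 217 among them), 125 with array medians subtracted (all among the 217), 167 with an offset before log2, 324 without the filter and 210 with the filter at the 60th percentile. Leaving out 1 array gave 219 to 899. The highest count came without RGA-GR Dex replicate 1 (899, with 203 of the 217), and counts were 342 without RGA-GR Dex replicate 3, and 373 and 347 without RGA-GR mock replicates 2 and 3. Without the first pair of RGA-GR arrays it was 794 and without pairs 1 and 2 of that line 732, both added after seeing the data; fewer arrays make the rule easier to meet.

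For RGA-GR mock against nontransgenic Dex, 66 of the 217 and 2635 of all probe sets passed. After quantile normalization these were 42 and 1123, with array medians subtracted 47 and 2251, with only the 6 arrays compared 35 and 2140, and with the spike-in split as a block (added after seeing the data) 45 and 1412. Subtracting medians moved the share of calls that were higher in mock to 37.3%, against 59.4% as deposited, over all probe sets, while of the 47 among the 217, 46 were higher. Leaving out 1 array gave 0 to 70 and 0 to 2780. The 0 came without RGA-GR mock replicate 2, where limma's smallest adjusted p was 0.0580, 84 of the 217 (4325 of all) had an unadjusted p under 0.05 and the median over the 217 was 0.49. Without RGA-GR mock replicate 1 the counts were 33 and 1368, and without nontransgenic Dex replicates 1, 2 and 3 those of all probe sets were 1148, 1105 and 1336. With the replicate number as a block, 73 and 3181 passed; the numbers do not pair these groups. Single values were followed under the alternatives only for the single-gene probe sets with the largest smaller differences and for the largest calls. Among these, 31 of 416 values no longer passed, 3 newly passed (BGLU46) and no called value changed sign. Other genes named with this difference, such as IYO, GME, NAC014, AT3G52060 and those with narrow intervals, were not followed. Any call among them was also lost without RGA-GR mock replicate 2, where 0 probe sets passed. AT1G09320 was lost under 9 of 18 alternatives, PPDK and the probe set of AT2G30600 with the larger difference (3.16) under 5 each, AT1G15330 and SAMTL under 4 each, PDF1.4 under 2, and AT1G19540 and the other AT2G30600 probe set under 1 each. For Dex against mock treatment of the RGA-GR line, the limma count of 0 was also 0 with the replicate block, over 9 arrays (1911 with an unadjusted p under 0.05) and over the 6 RGA-GR arrays alone (2433; added after seeing the data).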
